A study of Rattus norvegicus with 9 samples.

Results

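The genes described here are 8 genes of the oligodendrocyte lineage, measured in RNA of rat hippocampus exposed to ketone bodies. They are the precursor receptor Pdgfra, the lineage transcription factors Olig1 and Olig2, and the myelin genes Cnp, Mbp, Mobp, Mag and Mog. Members were the probe sets that the platform annotation lists with one of these symbols, which gave 8 of 14217 annotated genes and 14 of the 31042 probe sets on the array. Pdgfra, Olig1, Mag and Mog had 1 probe set each, Olig2 and Cnp had 2, and Mbp and Mobp had 3. The study hybridised 9 arrays in 3 groups of 3: control RNA exposed only to artificial cerebrospinal fluid, RNA after 1 h of ketone bodies and RNA after 6 h of ketone bodies. How long the controls were incubated, the dose and composition of the ketone bodies, and the strain, age and sex of the rats are not in the labels. The labels also do not say whether replicates were separate animals or cultures, so the p-values measure only the spread between these arrays, which may be technical.

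Oligodendrocytes are the glia that wrap axons of the central nervous system in myelin. They arise from dividing precursors that carry the receptor for platelet-derived growth factor encoded by Pdgfra. Olig1 and Olig2 encode basic helix-loop-helix factors that specify the lineage and drive its maturation, and the genes for myelin proteins are switched on as the cells differentiate. Such cells lie in the hippocampus along the axon tracts and among the neurons, and the precursors persist in the adult.

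Values are given as log2(signal + 16) after quantile normalization, a scale on which 1 unit is a doubling of well-measured signals. A probe set was tested if its mean over all arrays reached the 40th percentile, log2 5.21, and 18625 were. Of the 14 member probe sets 13 were tested. The exception was an Olig2 probe set, 1398212_at. The array medians before normalization ran from 5.67 to 5.88, and the correlation between arrays within a group was 0.949 to 0.987. The number of arrays limits the precision. For beta-actin, the array carries control probe sets at both ends of the transcript, and the 3'/5' log2 ratio, which is higher for degraded RNA or short labelled copies, averaged 1.35 ± 0.08 in control, 1.84 ± 0.40 at 1 h and 1.82 ± 0.77 at 6 h (SD, n = 3 each). With arrays named by group and replicate number, it was highest on ketone_6h 1, at 2.55, and lowest on ketone_6h 3, at 1.02. In between lay ketone_1h 2 at 2.13, ketone_1h 3 at 2.00, ketone_6h 2 at 1.90 and ketone_1h 1 at 1.38. The same ratio for Gapdh averaged 0.13 ± 0.11 in control, 0.11 ± 0.04 at 1 h and 0.19 ± 0.23 at 6 h. It was 0.46 on ketone_6h 1, and 0.14 and 0.12 on ketone_1h 2 and ketone_1h 3, so it did not rise at 1 h. Below, the 3'/5' ratio is that of beta-actin, and the members were not compared with the Gapdh ratio. The beta-actin ratio averaged higher in both ketone groups than in control. Used as a covariate, it can therefore take up part of a difference between groups.

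The labels call the RNA neuronal, and all 10 neuron markers examined were listed and tested. Markers of the oligodendrocyte lineage were measured in it as well. Of 9 oligodendrocyte markers 8 were listed with a probe set and all 8 were tested. Of 6 precursor markers 5 were listed and 4 were tested, and the proteoglycan Cspg4 lay under the filter. The deposited signals of the 8 oligodendrocyte markers, 1 probe set per gene, summed to 23185 to 23825 in control, 24051 to 26864 at 1 h and 23487 to 25651 at 6 h. The 5 precursor markers summed to 2254 to 2482 in control, 2209 to 2546 at 1 h and 2286 to 2690 at 6 h. Most of the precursor sum is Olig1, at 1516 to 1754 in control, 1617 to 1828 at 1 h and 1656 to 1878 at 6 h. The sums of both lists were not normalized between arrays, unlike the log2 changes below. In bulk RNA a change in the number of cells of a type and a change in RNA per cell cannot be told apart.

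Across all 3 comparisons 0 of the 13 tested member probe sets passed an adjusted p of 0.05 by limma with Benjamini-Hochberg adjustment over all tested probe sets. The share of all probe sets that passed was 0.0322% for 1 h against control, 0.0268% for 6 h against control and 0% for 6 h against 1 h. At an unadjusted p under 0.05 there was 1 member at 1 h against control, Pdgfra, where 11.4% of all probe sets lay under that level and 4.67% were also lower at 1 h. There were 0 members at 6 h against control, where 4.25% of all did. The comparison of 6 h against 1 h had 2 members, Pdgfra and a Mobp probe set (1370434_a_at), both higher at 6 h, where 2.72% of all did and 1.31% were also higher. The moderated F test for any difference among the 3 groups also called 0 members, beside 0.0215% of all, and its lowest adjusted p over the members was 0.739. At an unadjusted p under 0.05 that test held Pdgfra and the same Mobp probe set, where 6.36% of all lay under that level. The plot of member values shows every array, and in most panels the 3 groups lie on top of each other.

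**Figure D1:**
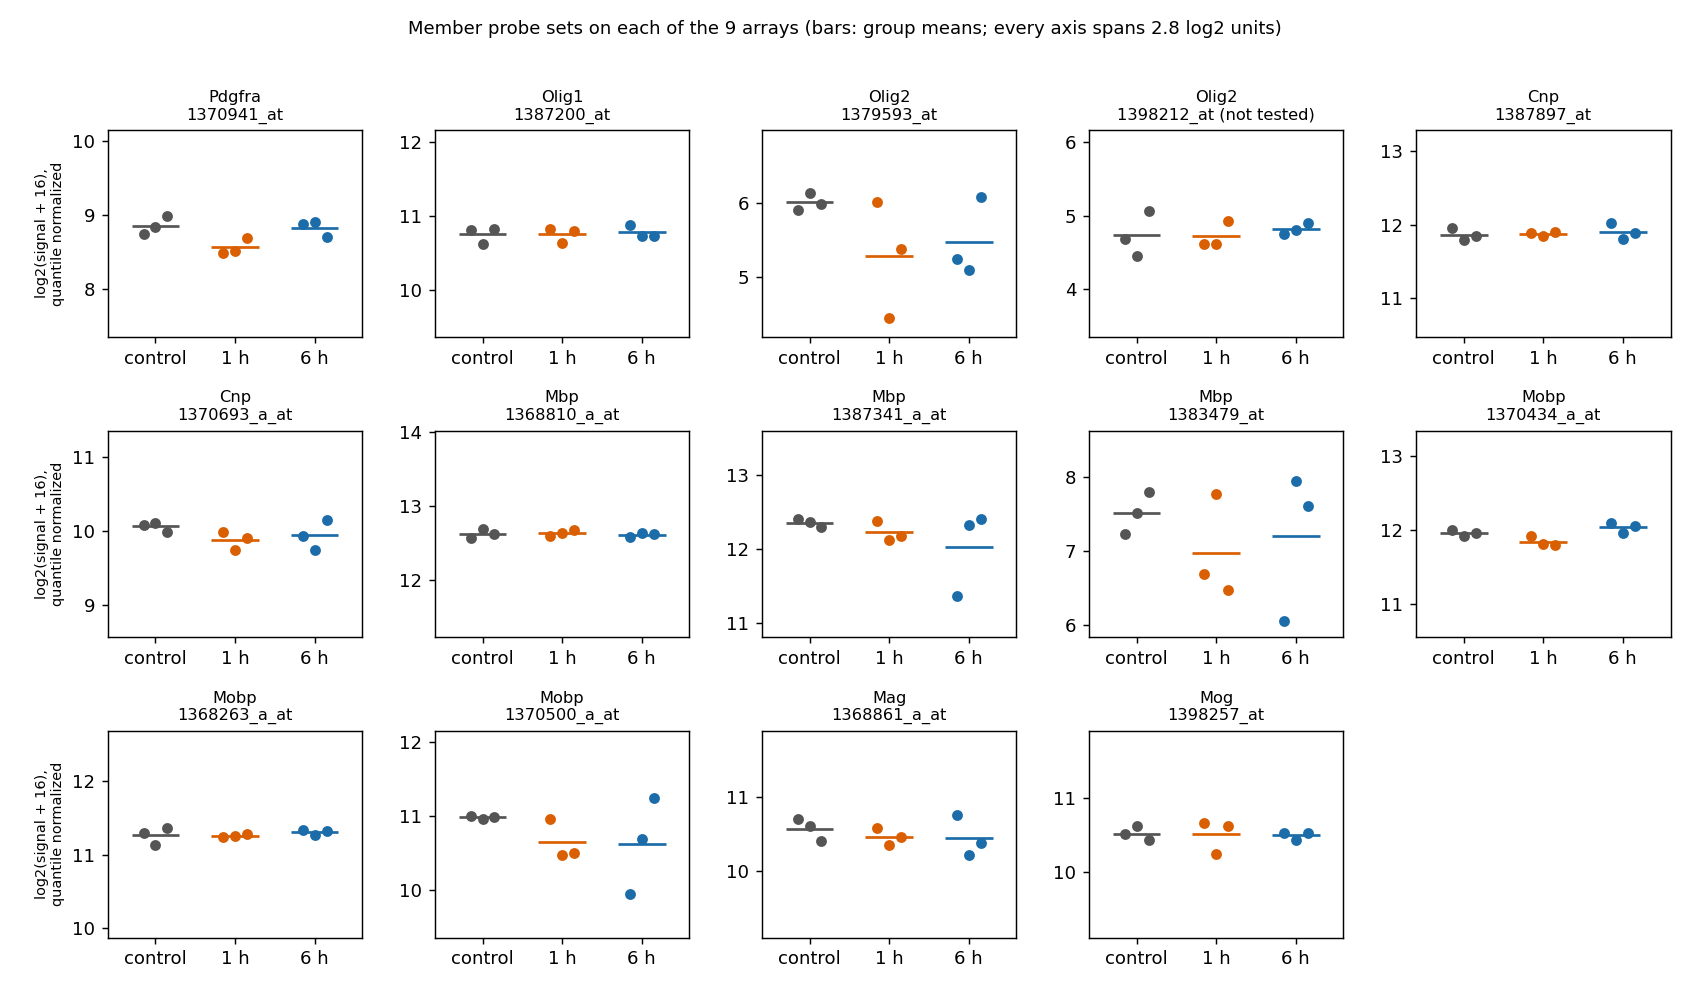
Log2(signal + 16) after quantile normalization (vertical axis) of the 14 member probe sets in control, 1 h and 6 h (horizontal axis). Points are arrays in order of replicate number, bars are group means, and every panel spans the same number of log2 units. Pdgfra is lower at 1 h than in control with no overlap, while 1 probe set each of Olig2 and Mobp and a pair of Mbp spread far more widely at 1 h or 6 h than the other members.

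Pdgfra, the receptor through which platelet-derived growth factor keeps precursors dividing, was the member with the smallest unadjusted p at 1 h against control. It had log2 values of 8.74, 8.84 and 8.99 in control, 8.49, 8.51 and 8.69 at 1 h, and 8.88, 8.90 and 8.70 at 6 h. Every 1 h array lay below every control array and, by a narrow margin, every 6 h array, while the 6 h arrays overlapped the control range. As deposited, 1 h and 6 h overlapped, with signals of 397.4 on ketone_1h 3 and 396.3 on ketone_6h 3. The log2 change at 1 h against control was -0.29 ± 0.11 (SE, n = 3 per group throughout), a fold of 0.816, with a 95% interval of -0.53 to -0.05 and an adjusted p of 0.391. At 6 h against control it was -0.03 ± 0.11 (adjusted p = 0.992). The direct comparison of 6 h against 1 h gave 0.26 ± 0.11 with an interval of 0.02 to 0.50 and an adjusted p of 0.996. None of these passed. For scale, groups that did not overlap were found in 21.3% of all tested probe sets at 1 h against control (8.26% with 1 h lower) and in 7.59% at 6 h against 1 h (3.55% with 6 h higher). Both comparisons use the same 1 h arrays. The change at 1 h against control stayed negative in all 19 alternative settings, from -0.36 to -0.19, and its unadjusted p was under 0.05 in 15 of them. With median centring it was -0.19 ± 0.13 (unadjusted p = 0.187). For 6 h against 1 h the unadjusted p was under 0.05 in 13 of 19. Over the 9 arrays Pdgfra correlated with the 3'/5' ratio at Pearson r = 0.05 and Spearman rho = 0.05, and with that ratio as a covariate its change at 1 h was -0.36 ± 0.12. Pdgfra is also a gene of meningeal and perivascular fibroblasts. The summed deposited signal of 6 fibroblast markers, all tested, was 1110 to 1380 at 1 h, against 1175 to 1270 in control, and their part in the Pdgfra value was not tested.

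Olig1, a factor of oligodendrocyte maturation and repair, had 10.81, 10.63 and 10.83 in control, 10.83, 10.64 and 10.80 at 1 h, and 10.88, 10.73 and 10.74 at 6 h. The groups overlapped in every comparison. Its log2 change was -0.002 ± 0.084 at 1 h against control (adjusted p = 0.994) and 0.02 ± 0.08 at 6 h against control (adjusted p = 0.991). The intervals, -0.19 to 0.18 and -0.16 to 0.21, bound the difference at each time only on the normalized scale. As deposited the change was 0.07 ± 0.09 at both times, each with an interval of -0.13 to 0.27. With median centring it was 0.17 ± 0.12 (interval -0.08 to 0.43) and 0.15 ± 0.12 (interval -0.11 to 0.40). Olig2, which commits neural progenitors to the lineage, lies beside Olig1 on chromosome 11 with 0 annotated genes between them in RefSeq's GRCr8 assembly. Both of its probe sets have arrays near or under the filter level. The tested Olig2 probe set, 1379593_at, had 5.91, 6.13 and 5.99 in control, 6.01, 4.45 and 5.38 at 1 h, and 5.25, 5.09 and 6.09 at 6 h. One array of each ketone group reached the control level and the other arrays were lower. The log2 change was -0.73 ± 0.37 at 1 h against control (adjusted p = 0.474, interval -1.55 to 0.09) and -0.53 ± 0.37 at 6 h against control (adjusted p = 0.987). The 1 h value was -0.32 ± 0.30 without ketone_1h 2 and -1.09 ± 0.34 without ketone_1h 1. The 6 h value was -0.34 ± 0.41 without ketone_6h 2 and -0.84 ± 0.36 without ketone_6h 3. The change at 1 h against control was -1.25 ± 0.63 with a pseudocount of 1 and -0.34 ± 0.17 with a pseudocount of 64. The low arrays were also those with a high 3'/5' ratio (r = -0.81, rho = -0.85 over the 9 arrays), and with the ratio as a covariate the changes were -0.32 ± 0.30 and -0.13 ± 0.29. The other Olig2 probe set, 1398212_at, ran from 4.46 to 5.06 in control, 4.61 to 4.93 at 1 h and 4.75 to 4.90 at 6 h. Without a filter its log2 change was -0.01 ± 0.17 at 1 h and 0.09 ± 0.17 at 6 h against control.

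Cnp encodes a cyclic nucleotide phosphodiesterase that keeps cytoplasmic channels open in myelin and appears early in differentiation. Its probe set 1387897_at had 11.95, 11.79 and 11.84 in control, 11.89, 11.85 and 11.90 at 1 h, and 12.02, 11.81 and 11.88 at 6 h. The log2 change was 0.02 ± 0.07 at 1 h against control (adjusted p = 0.932) and 0.04 ± 0.07 at 6 h against control (adjusted p = 0.988). These values depend on the scaling. At 1 h the change was 0.16 ± 0.07 (interval 0.001 to 0.33) as deposited and 0.27 ± 0.10 (interval 0.04 to 0.49) with median centring. The medians of all probe sets were then -0.008 and 0.10. At 6 h the changes were 0.11 ± 0.07 and 0.19 ± 0.10. The deposited 1 h signals, 3781 to 4231, lay above those of control, 3385 to 3723. The other Cnp probe set, 1370693_a_at, had 10.09, 10.11 and 9.99 in control, 9.98, 9.75 and 9.90 at 1 h, and 9.93, 9.74 and 10.15 at 6 h. Here the 1 h arrays lay below control without overlap, by a gap that is small beside the spread within the 1 h group. As deposited these groups overlapped, with signals of 1007 on ketone_1h 1 and 977 on control 3. Its change was -0.18 ± 0.11 at 1 h (adjusted p = 0.534) and -0.12 ± 0.11 at 6 h against control (adjusted p = 0.987). It ran opposite to the 3'/5' ratio over the 9 arrays (r = -0.73, rho = -0.83), where 1387897_at had r = 0.42 and rho = 0.32. Without ketone_6h 1 and ketone_1h 2 these were r = -0.88 and r = -0.09.

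Mbp encodes myelin basic protein, which glues the inner faces of the membrane together in compact myelin. Its probe set 1368810_a_at had, on the normalized scale, 12.56, 12.68 and 12.62 in control, 12.60, 12.63 and 12.67 at 1 h, and 12.58, 12.63 and 12.62 at 6 h. The 9 arrays spanned 0.12. The log2 change was 0.01 ± 0.05 at 1 h against control (interval -0.10 to 0.12, adjusted p = 0.945) and -0.01 ± 0.05 at 6 h against control (interval -0.12 to 0.09, adjusted p = 0.991). This narrow spread holds only after quantile normalization, in which the probe set stood at percentile 99.96 of all. Its deposited signals ran from 5494 to 7576, a span of 0.46 on the log2 scale. The change at 1 h against control was 0.12 ± 0.12 (interval -0.14 to 0.38) with the values as deposited and 0.22 ± 0.12 (interval -0.04 to 0.48) with median centring. At 6 h it was 0.01 ± 0.12 and 0.09 ± 0.12 under those scalings.

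The other Mbp probe sets spread more widely. For 1387341_a_at the values were 12.40, 12.36 and 12.30 in control, 12.38, 12.12 and 12.17 at 1 h, and 11.37, 12.32 and 12.40 at 6 h. A single array, ketone_6h 1, stood below all the others, and the other 6 h arrays lay at the control level. The log2 change was -0.13 ± 0.22 at 1 h against control (adjusted p = 0.832) and -0.32 ± 0.22 at 6 h against control (adjusted p = 0.987), and without ketone_6h 1 the 6 h value was 0.01 ± 0.08. Without ketone_6h 3 it was -0.51 ± 0.22. At 1 h the SE was 0.07 without ketone_6h 1, an array outside that comparison, with a change of -0.13 and an interval of -0.29 to 0.03. For 1383479_at the values were 7.23, 7.52 and 7.81 in control, 6.69, 7.78 and 6.48 at 1 h, and 6.05, 7.96 and 7.61 at 6 h. Here ketone_6h 1 was again lowest, and a pair of 1 h arrays was low too. Its change was -0.54 ± 0.47 at 1 h (adjusted p = 0.655) and -0.31 ± 0.47 at 6 h against control (adjusted p = 0.988). Without ketone_6h 1 the 6 h value turned to 0.26 ± 0.33, and without ketone_6h 2 it was -0.69 ± 0.48. The 1 h value was -0.28 ± 0.52 without ketone_1h 3 and -0.93 ± 0.46 without ketone_1h 2.

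Mobp encodes small basic proteins of compact central myelin, made late in differentiation. Its probe set 1370434_a_at had 12.00, 11.92 and 11.96 in control, 11.92, 11.81 and 11.79 at 1 h, and 12.10, 11.95 and 12.06 at 6 h. The 6 h arrays lay above all 1 h arrays, and on this normalized scale both ketone groups overlapped control. The log2 change was 0.20 ± 0.06 at 6 h against 1 h, a fold of 1.15, with an interval of 0.06 to 0.33, an unadjusted p of 0.00793 and an adjusted p of 0.996. Against control it was -0.12 ± 0.06 at 1 h (adjusted p = 0.469) and 0.08 ± 0.06 at 6 h (adjusted p = 0.987). With the values as deposited or with arrays centred on their medians, the sign at 1 h against control turned positive. The sign of 6 h against 1 h stayed positive in all 19 settings, from 0.09 to 0.24. Its interval was -0.02 to 0.25 as deposited and -0.10 to 0.27 with median centring. Under those scalings the change at 6 h against control was 0.14 (interval 0.006 to 0.28) and 0.22 (interval 0.03 to 0.41). The deposited signals were 4053 to 4221 at 6 h, all above the 3657 to 3843 of control. The probe set 1368263_a_at had 11.30, 11.14 and 11.35 in control, 11.24, 11.25 and 11.28 at 1 h, and 11.33, 11.27 and 11.32 at 6 h. Its change was 0.05 ± 0.07 at 6 h against 1 h (adjusted p = 0.996), with overlapping groups. With the 3'/5' ratio, 1370434_a_at correlated at r = -0.12 over the 9 arrays and at -0.73 without ketone_6h 1 and ketone_1h 2, and 1368263_a_at at 0.17 and 0.03.

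The remaining Mobp probe set, 1370500_a_at, had 11.00, 10.96 and 10.99 in control, 10.97, 10.48 and 10.50 at 1 h, and 9.94, 10.69 and 11.24 at 6 h. The controls lay within 0.05 of each other, and the 6 h arrays spread over 1.30 units. The log2 change was -0.33 ± 0.26 at 1 h (adjusted p = 0.622) and -0.36 ± 0.26 at 6 h against control (adjusted p = 0.987). The 6 h value was -0.02 ± 0.17 without ketone_6h 1 and -0.67 ± 0.21 without ketone_6h 3. The 1 h value was -0.33 ± 0.12 (unadjusted p = 0.0262 and adjusted p = 0.305 by limma) with only the groups compared, since the 6 h spread no longer enters the SE. Its values ran opposite to the 3'/5' ratio with r = -0.98 and rho = -0.88 over the 9 arrays, and r = -0.97 without the pair of arrays farthest out, ketone_6h 1 and ketone_1h 2. With the ratio as a covariate the changes became 0.06 ± 0.09 at 1 h and 0.02 ± 0.09 at 6 h against control. Because the ratio differed between the groups, its part and that of the exposure cannot be told apart.

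Mag encodes a sialic acid-binding adhesion protein on the myelin face next to the axon. It had 10.70, 10.61 and 10.40 in control, 10.59, 10.35 and 10.46 at 1 h, and 10.76, 10.22 and 10.37 at 6 h, with overlapping groups. Its change was -0.11 ± 0.14 at 1 h (adjusted p = 0.765) and -0.12 ± 0.14 at 6 h against control (adjusted p = 0.987). Mog encodes a glycoprotein on the outermost surface of the sheath and a late marker of maturity. It had 10.51, 10.62 and 10.42 in control, 10.66, 10.25 and 10.62 at 1 h, and 10.52, 10.42 and 10.53 at 6 h. Its change was -0.01 ± 0.11 at 1 h (adjusted p = 0.983) and -0.02 ± 0.11 at 6 h against control (adjusted p = 0.993). For both genes each ketone group overlapped control.

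As a set, the 13 tested member probe sets had 2 positive and 11 negative log2 changes at 1 h against control (median -0.12), beside 55.3% positive and a median of 0.03 over all tested probe sets. That direction rests on the scaling: there were 7 positive and 6 negative with the values as deposited (median 0.002, all probe sets -0.008), and 8 positive and 5 negative with arrays centred on their medians (median 0.11, all probe sets 0.10). At 6 h against control 4 were positive and 9 negative (median -0.03, all probe sets 0.01 with 53.8% positive), with a median of -0.02 as deposited and of 0.05 with median centring. At 6 h against 1 h 8 were positive and 5 negative (median 0.03, all probe sets -0.01 with 47% positive), with medians of -0.004 and -0.03 under those scalings. On the normalized scale 2 members did not overlap between 1 h and control, where 21.3% of all did not. Between 6 h and 1 h 2 did not, where 7.59% of all did not. Between 6 h and control 0 of 13 were free of overlap, beside 9.2% of all. As deposited, Pdgfra overlapped between 6 h and 1 h, and Cnp 1370693_a_at between 1 h and control. On that scale Cnp 1387897_at was free of overlap between 1 h and control, and Mobp 1370434_a_at between 6 h and control.

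The intervals say what sizes the arrays could resolve. In each comparison 9 of 13 members had a 95% interval within a 1.5-fold change in either direction, a bound chosen after seeing the data, beside 65% of all probe sets at 1 h against control, 71.7% at 6 h against control and 73.5% at 6 h against 1 h. The 9 included Pdgfra, Olig1, Mag, Mog, both Cnp probe sets, 1 of 3 for Mbp and 2 of 3 for Mobp. The 4 with wider intervals were Olig2 1379593_at, Mbp 1387341_a_at, Mbp 1383479_at and Mobp 1370500_a_at, and these limits depend on the scaling and on single arrays. The count at 1 h against control was 10 of 13 with the values as deposited, with median centring, with only the groups compared and without ketone_6h 1, and in each of these Mbp 1387341_a_at came inside the bound. Without ketone_6h 1 the counts were 11 of 13 at 6 h against control and 10 of 13 at 6 h against 1 h, and with median centring 10 of 13 at 6 h against 1 h.

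**Figure D2:**
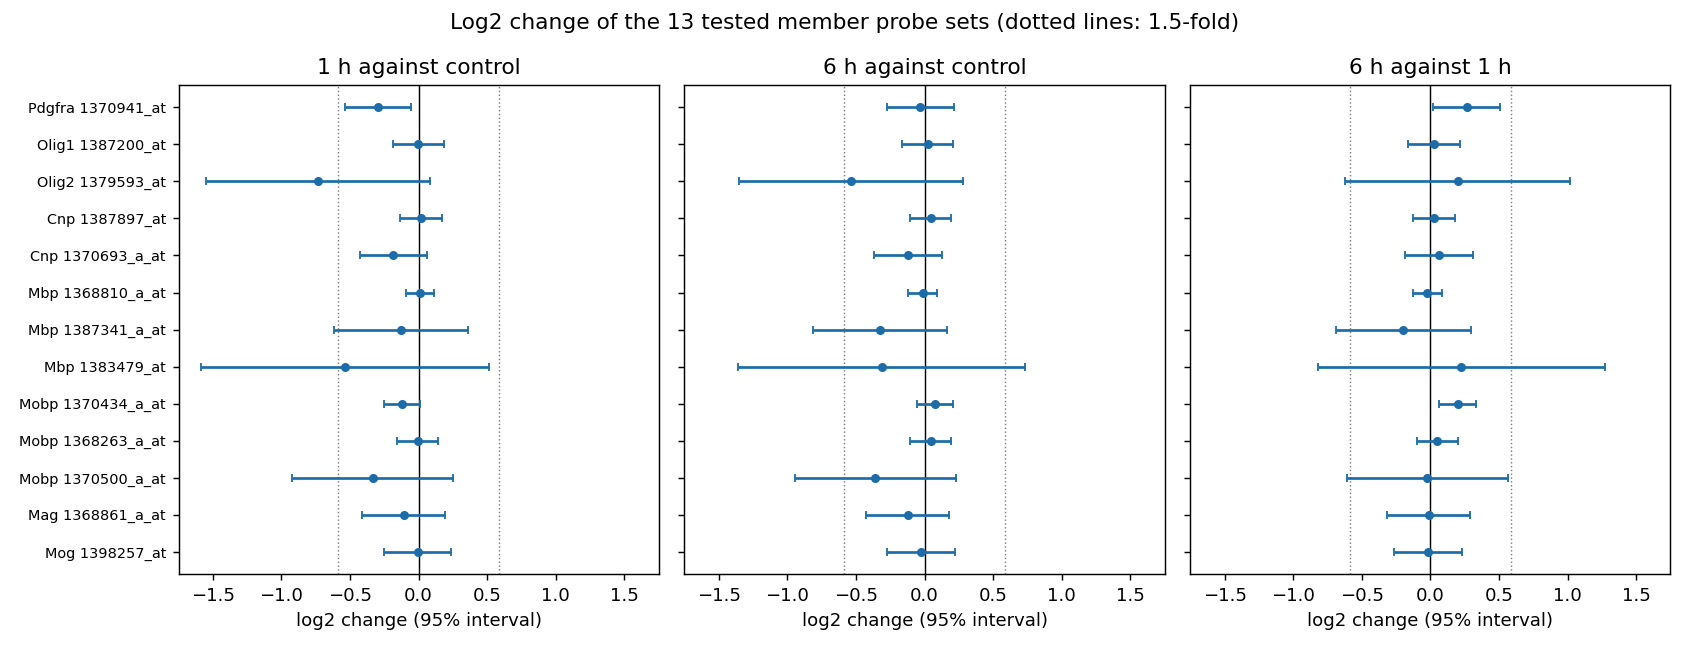
Log2 change with its 95% interval (horizontal axis) for the 13 tested member probe sets (vertical axis) in the 3 comparisons, with dotted lines at a 1.5-fold change. The 4 probe sets with wide intervals are Olig2 1379593_at, Mbp 1387341_a_at, Mbp 1383479_at and Mobp 1370500_a_at, and the intervals of Pdgfra at 1 h against control and of Pdgfra and Mobp 1370434_a_at at 6 h against 1 h leave out 0.

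Probe sets of a single gene were only loosely related. Over the 9 arrays the Mbp probe sets correlated with each other at 0.20 to 0.64, those of Mobp at -0.12 to 0.47, and those of Cnp at 0.15. The plot against the 3'/5' ratio shows where they part. On ketone_6h 1, the array with the highest ratio, Mbp 1387341_a_at and 1383479_at and Mobp 1370500_a_at had their lowest values, while Olig1, Cnp 1387897_at, Mobp 1370434_a_at and Mag had their highest. Of the members 3 of 13 correlated with the ratio at r under -0.8, where 3.61% of all tested probe sets did. These correlations share arrays and groups and are descriptions. Where on the transcripts the probe sets lie was not examined.

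**Figure D3:**
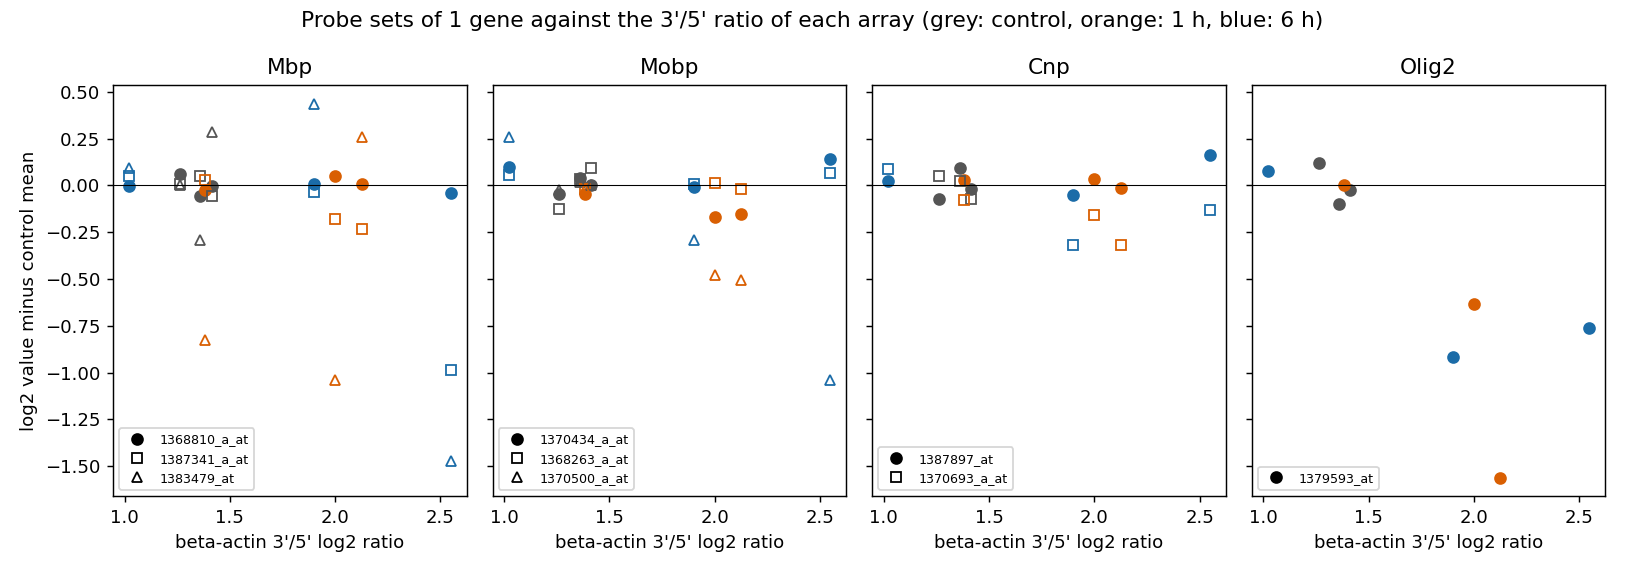
Log2 value minus the control mean (vertical axis) for the probe sets of Mbp, Mobp, Cnp and Olig2 against the beta-actin 3'/5' log2 ratio of each array (horizontal axis), with marker shapes for probe sets and colours for groups. Mobp 1370500_a_at and Mbp 1387341_a_at are lowest at the highest ratio, 2.55, while Mbp 1368810_a_at spans 0.12 over the 9 arrays on this normalized scale and 0.46 as deposited.

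The genes most like the myelin set were sought over the 9 arrays against the mean of the 10 myelin probe sets, which ran from 10.66 on ketone_6h 1 to 11.02 on ketone_6h 3. That mean is weighted by Mbp 1383479_at, Mobp 1370500_a_at and Mbp 1387341_a_at, which ranged over 1.91, 1.30 and 1.04, where the other myelin probe sets ranged over 0.12 to 0.53. Pairs of the 13 tested members correlated at a median r of 0.11, with 45 of 78 pairs above 0. The highest Pearson correlations belonged to Lingo1 1395706_at (0.98), Camk2d (0.98), Hpcal4 (0.97), Cdc42 (0.97) and Smim10l1 (0.97), with Spearman values of 0.90 to 0.97. Without the pair of arrays farthest out, ketone_6h 1 and ketone_1h 3, the Pearson values were 0.88 to 0.97. The mean itself correlated with the 3'/5' ratio at r = -0.94 (rho = -0.92), and these 5 probe sets at -0.96 to -0.89. For Pdgfra the most alike were Lclat1 (0.97), Tgfbr1 (0.95), Chuk (0.93), Cdh11 (0.91) and Ankrd6 (0.90), which correlated with the ratio at -0.25 to 0.12. Without the pair of arrays farthest out, control 3 and ketone_1h 1, the correlations with Pdgfra ran from 0.82 to 0.97. In both searches the genes were picked for the highest correlations on these same arrays. High values, also without a pair of arrays, follow in part from that choice.

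Other genes of the lineage gave no call either. A list of 20 precursor and lineage genes had 15 with a probe set, and 23 probe sets of 14 genes were tested. None of these passed in any comparison (limma, lowest adjusted p = 0.381), and at an unadjusted p under 0.05 there were 2 at 1 h against control, 3 at 6 h against control and 2 at 6 h against 1 h, beside 11.4%, 4.25% and 2.72% of all probe sets. The median log2 change at 1 h against control was -0.15 and 19 of 23 were below 0, while 55.3% of all probe sets were above 0. Some genes count more than once here, such as Tcf7l2 with 3 probe sets and Ptprz1 with 2. The list was not compared with the 3'/5' ratio. At 6 h against control the median was -0.01 with 13 of 23 negative, and at 6 h against 1 h it was 0.13 with 16 of 23 positive. With the values as deposited and with median centring the list's median at 1 h against control was -0.24 and -0.13, beside -0.008 and 0.10 for all probe sets, and at 6 h against 1 h it was 0.13 and 0.11. Both comparisons use the 1 h arrays. The Wnt effector Tcf7l2, active in newly differentiating oligodendrocytes, had 8.02, 8.33 and 8.54 in control, 7.73, 8.08 and 7.77 at 1 h, and 8.18, 8.41 and 8.26 at 6 h in probe set 1377156_at. The 6 h arrays lay above the 1 h arrays, by 0.43 ± 0.15 (adjusted p = 0.996), and the change at 1 h against control was -0.44 ± 0.15 (adjusted p = 0.381), with overlap. Its other tested probe sets had -0.36 ± 0.21 and -0.06 ± 0.23 at 1 h against control. The receptor phosphatase Ptprz1, shared by precursors and astrocytes, had changes of -0.33 ± 0.13 at 1 h against control (adjusted p = 0.394) and 0.32 ± 0.13 at 6 h against 1 h (adjusted p = 0.996) in 1368350_at, and -0.04 ± 0.17 and 0.17 ± 0.17 in its other probe set.

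Enpp6, an enzyme of newly forming oligodendrocytes, had 6.95, 6.94 and 6.91 at 6 h, against 6.61, 6.52 and 6.59 in control. The change was 0.36 ± 0.14 without overlap (adjusted p = 0.987). The lineage factor Nkx2-2 had 6.31, 6.32 and 6.22 at 6 h, against 6.70, 6.47 and 6.52 in control, a change of -0.28 ± 0.12 (adjusted p = 0.987). The Notch target Hes5, which holds precursors undifferentiated, had -0.51 ± 0.17 (adjusted p = 0.987) in the 1 of its 2 probe sets that was tested. For both genes the 6 h arrays lay below all controls.

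Of 27 further genes of mature oligodendrocytes and myelin 23 were measured, with 29 tested probe sets, and 0 passed (lowest adjusted p = 0.311). The medians were 0.04 at 1 h against control, 0.01 at 6 h against control and -0.07 at 6 h against 1 h, and the counts at an unadjusted p under 0.05 were 3, 0 and 1 of 29 in that order, beside the same shares of all. Median centring moved the median at 1 h against control to 0.18, beside 0.10 for all probe sets. At 1 h against control the small heat shock protein gene Cryab had 9.19, 9.28 and 9.25 at 1 h, against 8.82, 8.91 and 8.79 in control (0.40 ± 0.10, adjusted p = 0.311). The myelin membrane gene Pllp had 0.32 ± 0.11 (adjusted p = 0.378) and the pteridine reductase Qdpr 0.35 ± 0.13 (adjusted p = 0.385), each without overlap. Car2, a carbonic anhydrase of oligodendrocytes, had -0.31 ± 0.10 at 6 h against 1 h (adjusted p = 0.996). The tight junction gene of myelin, Cldn11, had 0.01 ± 0.07 at 1 h and 0.02 ± 0.07 at 6 h against control in 1376711_at, and -0.12 ± 0.31 and -0.29 ± 0.31 in 1369609_at. Mal had 0.04 ± 0.12 and 0.06 ± 0.12. Myelin lipid synthesis genes (7 of 9 measured, 9 tested probe sets) had 0 calls and 0 unadjusted p under 0.05 in all 3 comparisons. Among them Ugt8, which makes galactosylceramide, had -0.31 ± 0.16 at 1 h (adjusted p = 0.487) and the ceramide synthase Cers2 0.20 ± 0.10 (adjusted p = 0.459).

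**Figure D4:**
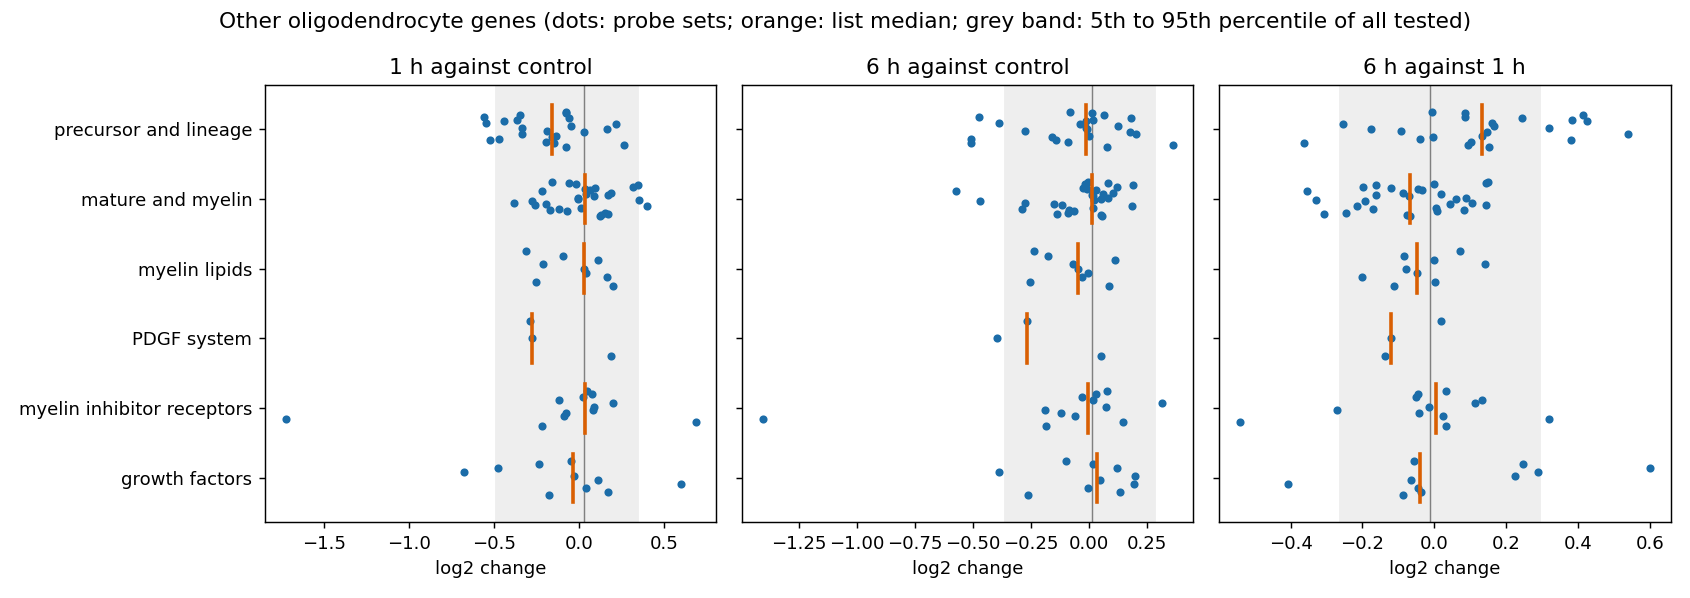
Log2 change (horizontal axis) of each tested probe set in 6 lists of related genes (vertical axis) for the 3 comparisons, with the list median in orange and the 5th to 95th percentile of all tested probe sets as a grey band; the grey line is the median of all tested, and each panel has its own scale. The precursor and lineage list has a median of -0.15 at 1 h against control and 0.13 at 6 h against 1 h, and the mature and myelin list has medians between -0.07 and 0.04.

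Ligands, receptors and growth factors of the lineage also gave no call. Of the platelet-derived growth factor genes beside Pdgfra, the precursor ligand Pdgfa had 0.19 ± 0.27 at 1 h and 0.05 ± 0.27 at 6 h against control, Pdgfc had -0.28 ± 0.26 and -0.39 ± 0.26, and the mural cell receptor Pdgfrb had -0.29 ± 0.23 and -0.27 ± 0.23, with 0 calls (lowest adjusted p = 0.626). Receptors and partners of myelin inhibitors, through which Mag acts on axons, gave 0 calls over 12 tested probe sets (lowest adjusted p = 0.393). In that list the coreceptor Lingo1 had 3 probe sets that disagreed at 1 h against control, with changes of 0.69 ± 0.26, -1.73 ± 0.73 and -0.22 ± 0.14. The growth factor Igf1, which promotes survival and myelination, had 7.41, 7.09 and 7.07 at 1 h, against 6.66, 6.33 and 6.79 in control, in 1370333_a_at (0.60 ± 0.19, adjusted p = 0.356) and 0.11 ± 0.17 in 1388469_at. Its receptor Igf1r had -0.68 ± 0.20 (adjusted p = 0.348) in 1392492_at and -0.03 ± 0.15 in its other probe set. The 10 tested probe sets of that list gave 0 calls in all 3 comparisons, with medians of -0.03, 0.03 and -0.04.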

How the data were processed

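The authors deposited a linear intensity for each of 31099 probe sets on 9 arrays, as read from the values. Their software and background handling: not given in the sources used here. Groups and replicate numbers come from the titles. The 57 control probe sets were left out, values were taken as log2(signal + 16) and quantile normalized, and probe sets with a mean under the 40th percentile were dropped, which left 18625. One fit with limma 3.58.1 in R 4.3.3 had a coefficient per group, 6 residual degrees of freedom and variances moderated with an intensity trend. P-values were 2-sided and Benjamini-Hochberg adjusted over all 18625. Gene names came from the platform annotation, and all 8 member symbols matched a RefSeq gene through their Entrez numbers. Likeness was the Pearson correlation over the 9 arrays, with no p. The named genes are all member probe sets, up to 3 with the smallest p per list and comparison, and the 5 most alike. The tested microglia and astrocyte markers, Cldn11, Mal and the further probe sets of named genes were named after their values were seen. The members and lists were chosen with earlier results of these data known. In a simulated 1 h against control comparison of these 18625 probe sets, 18.4% of the changes of 0.5 (log2) were called. For changes of 1 and 2 the shares were 72.8% and 95.4%, no sign was wrong, and 5.22% of the calls were false. The simulation drew independent normal noise for each probe set and changed 200 of them in random directions. It held no effect shared by the probe sets of an array, so these shares may not carry over to the real arrays. Alternatives changed the scaling, pseudocount, filter, variance trend, covariates and arrays. Figures were drawn with matplotlib 3.10.9.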

Additional observations from a re-analysis of the deposited data

How the results depend on the processing

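In all 19 alternative settings 0 member probe sets passed in any comparison, and the lowest adjusted p was 0.285. Of 738 member log2 changes under these settings 70 had the opposite sign to the reported value, and 23 of the 70 arose with the values as deposited or with arrays centred on their medians; none of these changes was called. The median change of the members at 1 h against control was 0.11 with median centring, against -0.12 as reported, and -0.07 without ketone_1h 2. At 6 h against 1 h the members' median was -0.02 without ketone_1h 2, against 0.03 as reported. The count of all probe sets called at 1 h against control, 6 as reported, was 3 with no filter, 2 with a replicate block and 0 with the 3'/5' ratio as a covariate, and it ran from 0 to 10 when single arrays were left out: 0 without control 1, 2 or 3, ketone_1h 1 or ketone_1h 3, 3 without ketone_1h 2, 2 without ketone_6h 3 and 10 without ketone_6h 1. The count at 6 h against control, 5 as reported, was 2 as deposited, 1 with median centring, 2 with no filter, 1 with a replicate block, 1 with the covariate, 1 with only the groups compared, and 1 without any single array of the 9. The replicate block left 0 members called. The labels share only numbers: 3 of 9 same-number pairs of arrays correlated above 0.1 in their deviations from the group means (-0.36 to 0.54), and 4 of 9 arrays correlated best with their own number. The tested Olig2 probe set lay under the 60th percentile filter and has no value there.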

Other observations

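Markers of other cell types gave 0 calls at an adjusted p under 0.05 in any of the 3 comparisons. Of 7 tested microglia and macrophage probe sets 5 were above 0 and 2 below at 1 h against control (median 0.27). The microglial gene Aif1 had 0.75 ± 0.17 at 1 h against control (limma, adjusted p = 0.299) and 0.40 ± 0.17 at 6 h (adjusted p = 0.987). At 1 h Cx3cr1 had -0.39 ± 0.21 and Csf1r -0.01 ± 0.18. In that comparison C1qa had 0.30 ± 0.11 (adjusted p = 0.393), C1qb 0.15 ± 0.13, C1qc 0.27 ± 0.17 and Itgam 0.27 ± 0.20. Of 13 tested astrocyte probe sets 5 were above 0 and 8 below at 1 h (median -0.08). The astrocyte gap junction gene Gja1 had -0.21 ± 0.06 at 1 h against control in 1372002_at (adjusted p = 0.352). In 1369640_at it had -1.71 ± 0.69 (adjusted p = 0.411), with 6.91, 7.67 and 8.32 in control, 6.56, 5.35 and 5.88 at 1 h, and 5.26, 6.20 and 8.45 at 6 h. At 1 h Aqp4 had -0.67 ± 0.25 in 1387397_at (adjusted p = 0.391), -1.12 ± 0.71 in 1368981_at and -0.09 ± 0.09 in 1372190_at. Gfap had 0.12 ± 0.11, S100b 0.10 ± 0.06 and Aldh1l1 0.24 ± 0.22. The tested probe sets of Slc1a3 had -0.05 ± 0.09, 0.21 ± 0.25 and -0.55 ± 0.42, and those of Slc1a2 -0.08 ± 0.13 and 0.06 ± 0.22. The summed deposited signal of 8 microglia and macrophage markers was 1230 to 1298 at 1 h, against 984 to 1161 in control. That of 7 astrocyte markers was 17155 to 19080 at 1 h, against 16674 to 17575 in control, and that of 10 neuron markers was 21185 to 23563 at 1 h, against 20979 to 21941 in control. On the normalized scale, of 15 tested neuron probe sets 1 was above 0 and 14 below at 1 h against control (median -0.11). At 6 h against control 2 were above and 13 below (median -0.17). The medians of all tested probe sets were 0.03 and 0.01. The 15 neuron probe sets belong to 10 genes. The counts for neuron, astrocyte and microglia probe sets were not repeated with the values as deposited or with median centring. These probe sets were also not compared with the 3'/5' ratio.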
